A study of Homo sapiens with 16 samples.

Results

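The nuclear-encoded subunits of the mitochondrial respiratory chain were examined in RNA sequencing data of cultured lung adenocarcinoma cells. Members were taken by name and level: protein-coding genes named NDUFA, NDUFB, NDUFC, NDUFS or NDUFV with a digit, SDHA to SDHD, and names starting with UQCR, COX4 to COX8 or ATP5, with at least 1 FPKM (fragments per kilobase of gene, scaled to sequencing depth, so a level per length) in at least 2 libraries. Of 58735 genes in the deposited tables, 90 had such a name and 81 reached that level: 36 of 39 in complex I, 4 of 4 in complex II, 9 of 9 in complex III, 13 of 17 in complex IV and 19 of 21 in complex V. The tested cells were NCI-H1975, a line from a lung adenocarcinoma with mutant EGFR that the labels list with genotype WT, given either the chloroform fraction of Flos Magnoliae (magnolia flower buds) or magnolin, a lignan found in those buds, or left as control, with 4 libraries per group. Parental HCC827, another EGFR-mutant lung adenocarcinoma line labelled WT, gave 2 libraries. The sources used here give no dose, time or vehicle. They do not say whether libraries came from separate cultures, so a p-value speaks only of the spread among these libraries, which may be technical.

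The respiratory chain sits in the inner mitochondrial membrane. Complex I takes electrons from NADH and complex II from succinate, both pass them to ubiquinone, complex III hands them on to cytochrome c, complex IV gives them to oxygen, and the proton gradient built on the way drives ATP synthesis by complex V. All subunits of complex II and most of the others are encoded in the nucleus and imported; a core set is encoded in mitochondrial DNA, so each of complexes I, III, IV and V is built from the products of both genomes. Many nuclear subunit genes have compact promoters bound by NRF1, ETS factors such as GABPA, or YY1, which are known regulators of respiratory genes.

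NCI-H1975 replicates 1 and 2 of each group stand in one table, called set A here, and replicates 3 and 4 in another, called set B. The tables were normalised separately, so each was tested alone and levels are compared across them only as description. Reads rebuilt from FPKM and gene length came to 15863416 to 21312671 per library. The replicate 1 libraries of all 3 groups stood apart: EPCAM, an epithelial adhesion protein, was at 178, 172 and 193 FPKM in replicate 1 of fraction, magnolin and control, but at 7.65 to 14.4 FPKM in the 9 other NCI-H1975 libraries and at 159 and 152 FPKM in HCC827. CDH1, the epithelial cadherin, was likewise at 54.2 to 74.2 FPKM in replicate 1 and at 4.88 to 9.39 FPKM in the others. Over genes, the replicate 1 libraries correlated at 0.977 to 0.985 with each other and at 0.876 to 0.943 with replicates 2 to 4. Replicates 2 to 4 correlated at 0.914 to 0.985 among themselves, so these last 2 ranges overlap. Set A is therefore described replicate by replicate. Within set B, fraction replicate 3 was below fraction replicate 4 in 65 of the 81 members. The median of replicate 4 minus replicate 3 was 0.20 on the log2 scale in members. In all tested genes it was -0.01, a value largely set by the common scaling within the table. In bulk samples such as these, fewer cells of a type and less RNA per cell cannot be told apart.

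The promoters of the genes that carried the set B result are shown first, because regulators of this gene family are known by their letters. RefSeq (build GRCh38.p14) gave a promoter of 300 bases for 65 of the 81 members. The stretch from 120 bases before to 30 bases after the start is printed for the gene of each complex with the largest fall under the fraction in set B among those with an entry, for ATP5PB as the gene with the largest such fall whose stretch holds a YY1 match, and for COX6B2, the 1 gene that was higher; this choice was made after the values were seen. Letters in capitals mark matches, on either strand, to NRF1 (GCGCA, any base, GCGC), ETS (CCGGAAG) or YY1 (AAGATGGC).
NDUFB3, chr2:201071881-201072030 (+ strand): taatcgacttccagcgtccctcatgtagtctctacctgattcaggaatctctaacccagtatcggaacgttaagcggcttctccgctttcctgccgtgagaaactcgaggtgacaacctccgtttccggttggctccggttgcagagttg
SDHD, chr11:112086753-112086902 (+ strand): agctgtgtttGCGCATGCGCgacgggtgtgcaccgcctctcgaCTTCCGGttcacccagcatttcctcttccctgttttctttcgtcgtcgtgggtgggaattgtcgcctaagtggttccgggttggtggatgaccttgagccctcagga
UQCRFS1, chr19:29213122-29213271 (- strand): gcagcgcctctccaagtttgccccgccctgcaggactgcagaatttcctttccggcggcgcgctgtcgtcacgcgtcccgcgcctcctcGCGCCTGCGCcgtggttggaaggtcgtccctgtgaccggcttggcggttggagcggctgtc
COX7B, chrX:77899348-77899497 (+ strand): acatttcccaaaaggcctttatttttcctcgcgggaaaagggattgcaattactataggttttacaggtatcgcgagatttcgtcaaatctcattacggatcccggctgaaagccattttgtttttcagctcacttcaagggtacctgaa
ATP5MC1, chr17:48892667-48892816 (+ strand): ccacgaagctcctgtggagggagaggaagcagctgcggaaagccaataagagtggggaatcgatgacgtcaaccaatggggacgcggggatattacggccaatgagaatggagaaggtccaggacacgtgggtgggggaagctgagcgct
ATP5PB, chr1:111449344-111449493 (+ strand): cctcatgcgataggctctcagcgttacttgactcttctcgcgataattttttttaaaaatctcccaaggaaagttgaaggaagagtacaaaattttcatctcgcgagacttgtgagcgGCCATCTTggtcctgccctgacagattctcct
COX6B2, chr19:55354690-55354839 (- strand): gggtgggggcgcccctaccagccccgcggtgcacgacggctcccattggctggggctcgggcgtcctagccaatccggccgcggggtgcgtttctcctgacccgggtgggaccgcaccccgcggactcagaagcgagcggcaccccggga

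SDHD held an NRF1 and an ETS match, UQCRFS1 an NRF1 match and ATP5PB a YY1 match, while the other 4 stretches held none of these letters. Over the 300 bases, 16 of 65 members (24.6%) held the NRF1 letters, 20 (30.8%) the ETS letters and 11 (16.9%) the YY1 letters. At least 1 of the 3 was present in 58.5% of member promoters, against 32.5% of promoters of genes at 1 FPKM in at least 2 libraries and 17.9% of all promoters in the table. Among the members called lower with the fraction in set B, 14 of the 21 with an entry (66.7%) held at least 1. These are letter matches in a window and not measured binding.

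Levels spread widely within each complex. Averaged over the 14 libraries, ATP5F1B, the catalytic beta subunit of the ATP synthase head, was the highest member at 396 FPKM, followed by NDUFS5 at 136 FPKM and COX8A at 124 FPKM, an accessory subunit of complex I and a small subunit of complex IV. In complex III UQCRC1, a core subunit, led at 78.4 FPKM and UQCRH, the hinge protein, followed at 57.4 FPKM. In complex II SDHA, the flavoprotein that oxidises succinate, averaged 41.2 FPKM, SDHB, the iron-sulfur subunit, 27.6 FPKM, and the membrane anchors SDHC and SDHD 11.7 and 25.8 FPKM. NDUFB7, an accessory subunit of complex I at 111 FPKM, differed most on the log scale between the controls of set A, with 58.4 FPKM in replicate 1 and 177 FPKM in replicate 2.

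Several alternative subunits were near or below the threshold. COX4I2, the lung- and oxygen-regulated form of subunit 4, reached at most 0.0833 FPKM, against 38.0 to 62.5 FPKM in controls for the general form COX4I1. The muscle form COX6A2 was listed at 0 in all 14 libraries, and the general form COX6A1 ranged over 11.99 to 44.1 FPKM. NDUFA4L2, a hypoxia-induced relative of NDUFA4, stayed at or under 0.175 FPKM in NCI-H1975 and was at 0.541 and 0.679 FPKM in HCC827. The other genes left out by the threshold were COX7B2, COX8C, ATP5MGL, the read-through genes ATP5MF-PTCD1 and NDUFC2-KCTD14, and NDUFV2. NDUFV2 encodes a core complex I subunit, and its highest value was 0.761 FPKM; how reads were assigned to it is not known. Just inside the threshold were COX6B2 and NDUFA7, which reached 1 FPKM in 2 libraries, and the muscle form COX7A1, which did so in 4.

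**Figure D1:**
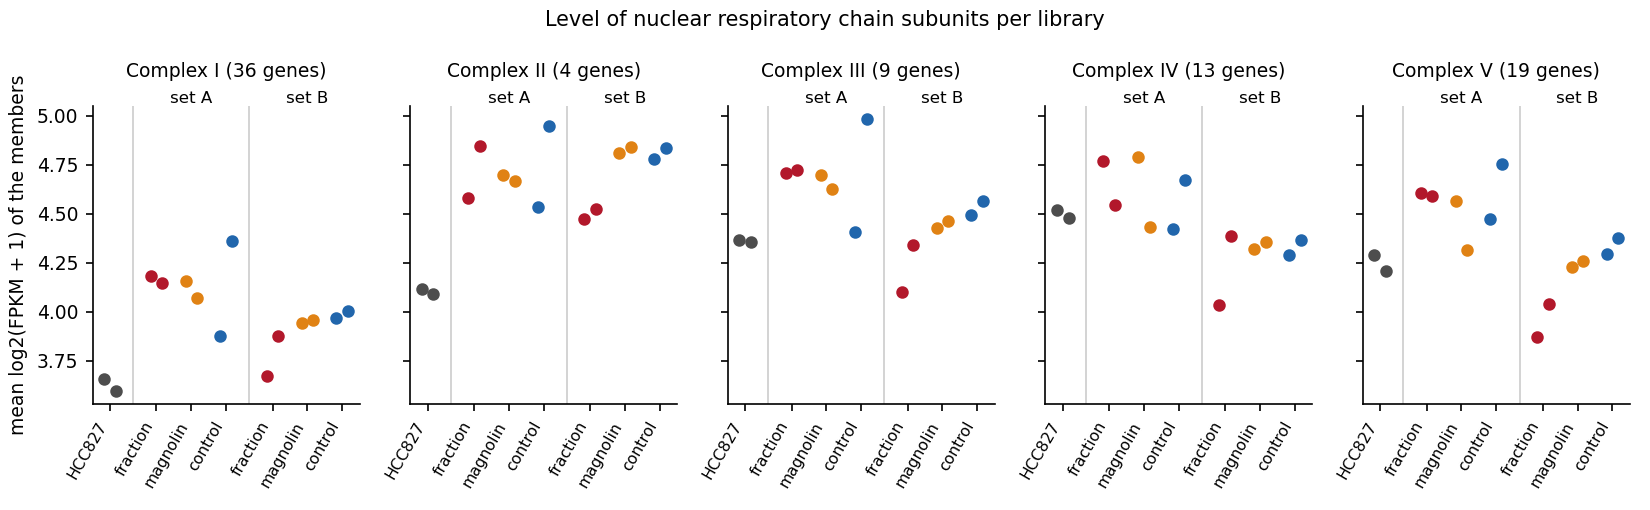
Mean log2(FPKM + 1) of the members of each complex in each library; every point is 1 library, with HCC827 in grey, fraction in red, magnolin in orange and control in blue. In set B the 2 fraction libraries lay below both controls in complexes I, II, III and V, and in complex IV fraction replicate 4 lay above both controls; in set A control replicates 1 and 2 lay far apart.

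The first comparison asked whether the fraction changed these genes in set B. Levels were mostly lower with the fraction: 26 of the 81 members fell and 1 rose at an adjusted p under 0.05 (limma, Benjamini-Hochberg over all 14673 genes tested), so that 27 were called, or 33.3% of members. Among all tested genes 19.9% were called, 8.33% as higher and 11.6% as lower. This split depends on the scaling, since over all genes 1222 were higher and 1696 lower as deposited, against 1544 higher and 1302 lower when scaled over genes of at least 5 FPKM; 22 members were then called. The median member changed by -0.25 on the log2(FPKM + 1) scale, beside -0.01 for all tested genes, and 72 of 81 had a negative change. The common scaling within the table largely sets the median of all genes. Both fraction libraries were below both controls for 50 members (61.7%), beside 32.7% of all genes, and above both for 5 members (6.17%), beside 29.2% of all genes. COX6B2 and NDUFA7 were among these 5. They reached 1 FPKM only in the fraction libraries of set B, so passing the filter fixed their place above the controls. COX6B2 was also the 1 member called higher. The count moved with single libraries. Without control replicate 4, 3 of 81 members (3.7%) were called, beside 5.07% of all genes, so the members' share was then below that of all genes. Without control replicate 3 the count was 7 (8.64%), beside 6.62% of all genes. It was 16 without either magnolin library, beside 13.7% of all genes in both fits. Without fraction replicate 3 it was 25 of 79, beside 22.4%, and without fraction replicate 4 it was 41 of 78, beside 20.5%. The median was -0.15 without fraction replicate 3 and -0.41 without fraction replicate 4.

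**Figure D2:**
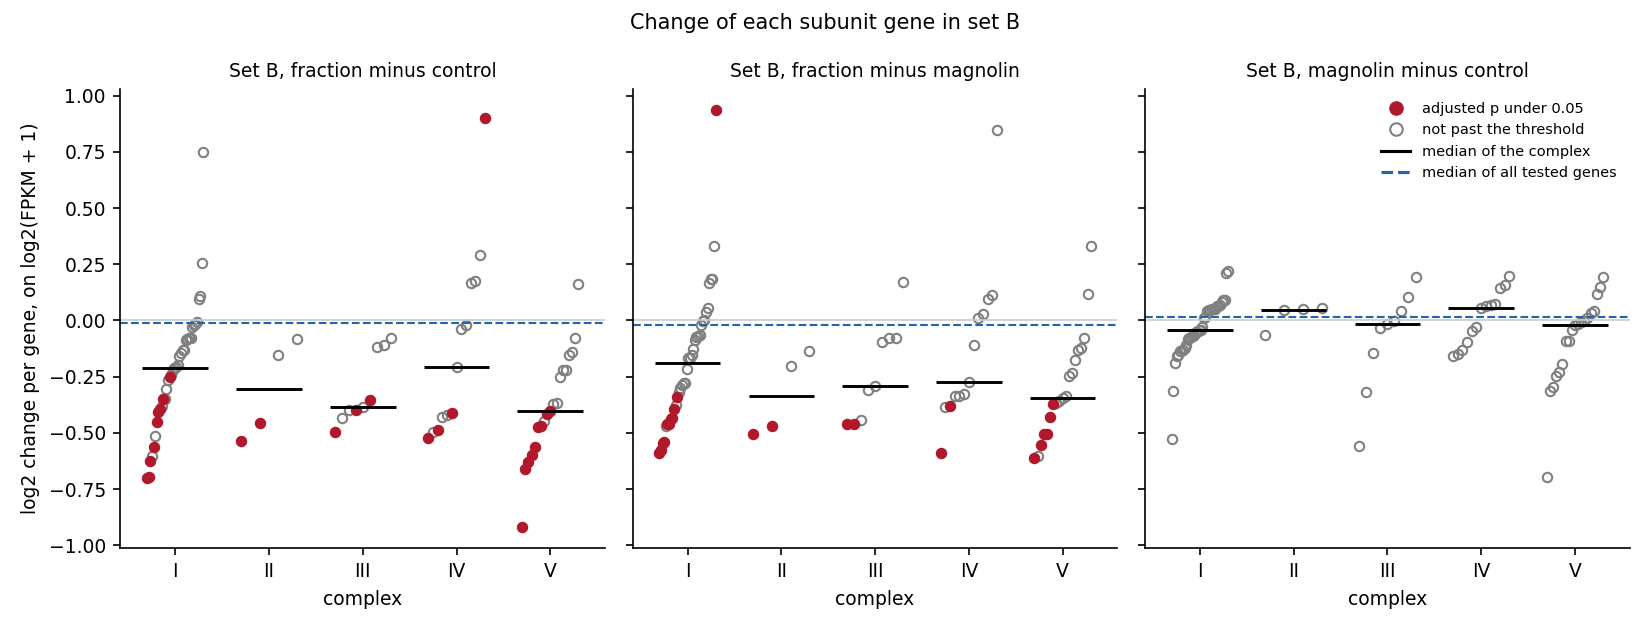
Log2 change per member in set B for 3 comparisons, by complex; filled red points passed the threshold, open points did not, black bars are medians of a complex and the dashed line is the median of all tested genes. In both comparisons of the fraction the medians of all 5 complexes lie below the dashed line, and for magnolin minus control they lie near it.

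Complex V, the ATP synthase, had 9 of 19 genes lower and a median of -0.40: 3 of 5 in the catalytic head and central stalk, 2 of 3 in the rotor ring, 3 of 4 in the peripheral stalk and 1 of 5 in the membrane part. The 19 take in ATP5S by its name, a gene classed here as related to the ATP synthase and not as a part of it. ATP5S was the 1 complex V gene with a positive change, 0.16, and was not called. ATP5MC1, 1 of 3 genes for the membrane rotor subunit c (chr17:48892765-48895871), had 8.48 and 13.1 FPKM in fraction libraries, 16.4 and 16.7 FPKM with magnolin and 20.9 and 20.8 FPKM in controls, a change of -0.92 ± 0.18 (SE, adjusted p = 0.0185). Both fraction libraries were below all others, but the 2 differed from each other, and reads may be shared with up to 7 named pseudogenes of this gene. ATP5MC3, which encodes the same mature subunit, fell by 0.60 ± 0.08 (SE, adjusted p = 0.00657), while ATP5MC2 changed by -0.22 and did not pass (adjusted p = 0.146). ATP5PB, the b subunit of the peripheral stalk (chr1:111448864-111462773), had 30.3 and 29.4 FPKM in fraction libraries, 45.1 and 47.4 FPKM with magnolin and 46.7 and 46.9 FPKM in controls, a change of -0.63 ± 0.07 (SE, adjusted p = 0.00293). Fraction libraries lay below all others, and magnolin and control lay together. The other stalk subunits ATP5PO and ATP5PF fell by 0.66 and 0.56 (adjusted p = 0.0162 and 0.00481). In the head, the beta subunit ATP5F1B had 267 and 269 FPKM in fraction libraries, 355 and 368 FPKM with magnolin and 349 and 368 FPKM in controls, a change of -0.42 ± 0.06 (SE, adjusted p = 0.00866). ATP5F1A, the alpha subunit, and ATP5F1C, the gamma subunit, fell by 0.47 and 0.40. The membrane subunit ATP5MG fell by 0.48. ATP5IF1, which inhibits the enzyme when it runs in reverse, was at 7.75 and 11.7 FPKM with the fraction and 13.2 and 12.1 FPKM in controls and did not pass (adjusted p = 0.199).

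Complex II had 2 of 4 genes lower and a median of -0.30. SDHD (chr11:112086773-112120013) had 19.0 and 19.3 FPKM in fraction libraries, 27.1 and 26.7 FPKM with magnolin and 27.5 and 28.9 FPKM in controls, a change of -0.54 ± 0.07 (SE, adjusted p = 0.00501). Its start overlaps TIMM8B on the other strand, an import chaperone gene that also fell (log2 change -0.55), and without a stated strand setting their shared reads cannot be told apart. SDHB (chr1:17018722-17054170) had 18.5 and 20.1 FPKM in fraction libraries, 27.5 and 28.1 FPKM with magnolin and 25.7 and 28.0 FPKM in controls, a change of -0.45 ± 0.08 (SE, adjusted p = 0.0143). No annotated gene overlaps SDHB and no pseudogene carries its name. SDHA and SDHC changed by -0.15 and -0.08 and did not pass (adjusted p = 0.271 and 0.479).

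In complex I the median was -0.21 and 9 of 36 genes fell. NDUFA1 (chrX:119871487-119876662), needed for assembly of the membrane arm, had 27.5 and 26.2 FPKM in fraction libraries, 39.8 and 39.2 FPKM with magnolin and 44.3 and 44.0 FPKM in controls, a change of -0.70 ± 0.07 (SE, adjusted p = 0.00218). NDUFB3 (chr2:201071433-201085750), another accessory subunit of the membrane arm, had 9.07 and 10.15 FPKM in fraction libraries, 15.2 and 14.7 FPKM with magnolin and 15.4 and 17.0 FPKM in controls, a change of -0.70 ± 0.09 (SE, adjusted p = 0.00529). In both genes the fraction was lowest, and both magnolin libraries were below both controls. NDUFS5 (chr1:39026318-39034636) had 98.8 and 100.4 FPKM in fraction libraries, 147 and 152 FPKM with magnolin and 148 and 148 FPKM in controls, a change of -0.56 ± 0.06 (SE, adjusted p = 0.00303). NDUFA1, NDUFS5 and ATP5PB were the 3 members still called without control replicate 4. NDUFB6 and NDUFB4 fell by 0.63 and 0.45. NDUFA4, counted here in complex I by its name but described as a subunit of complex IV, fell by 0.39. NDUFA6 and NDUFA5 fell by 0.41 and 0.35, and both calls were lost when the replicate number was a block (adjusted p = 0.0600 and 0.0682).

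Complex III had 3 of 9 genes lower and a median of -0.39. UQCRFS1, the Rieske iron-sulfur protein (chr19:29205321-29213541), had 17.0 and 19.5 FPKM in fraction libraries, 25.4 and 25.5 FPKM with magnolin and 24.2 and 28.0 FPKM in controls, a change of -0.50 ± 0.10 (SE, adjusted p = 0.0231). UQCRH fell by 0.35 (adjusted p = 0.0357). UQCR11 fell by 0.40, a call lost with the replicate block (adjusted p = 0.0557). The core subunits UQCRC1 and UQCRC2 changed by -0.08 and -0.40 and did not pass (adjusted p = 0.605 and 0.0600).

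Complex IV was the most mixed, with 3 of 13 genes lower, 1 higher and a median of -0.21. COX7B (chrX:77899438-77907373) had 19.3 and 16.6 FPKM in fraction libraries, 27.7 and 27.2 FPKM with magnolin and 23.5 and 29.1 FPKM in controls, a change of -0.52 ± 0.12 (SE, adjusted p = 0.0339, or 0.0625 with the replicate block). COX6B1 and COX7C, small subunits in the general form, fell by 0.49 and 0.41 (adjusted p = 0.0192 and 0.0226). COX6B2, the testis form of subunit 6B, had 1.53 and 1.55 FPKM in fraction libraries, 0.340 and 0.491 FPKM with magnolin and 0.211 and 0.530 FPKM in controls, a change of 0.90 ± 0.24 (SE, adjusted p = 0.0455, or 0.0675 with the replicate block). This gene passed the level filter only through the 2 fraction libraries, so it could enter the test only by being high there, as could NDUFA7. COX8A was the least steady member, at 54.2 and 141 FPKM in fraction libraries, 107 and 115 FPKM with magnolin and 130 and 118 FPKM in controls. COX4I1, COX6A1, COX7A1 and COX7A2 changed by -0.04, 0.17, 0.29 and -0.21 and did not pass (adjusted p = 0.828, 0.669, 0.427 and 0.332). With the replicate block ATP5MF, COX5A and COX6C were called lower as well (adjusted p = 0.0382, 0.0258 and 0.0418), and 24 members were called in all, every one lower, beside 14.7% of all genes; 21 of them were among the 27.

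**Figure D3:**
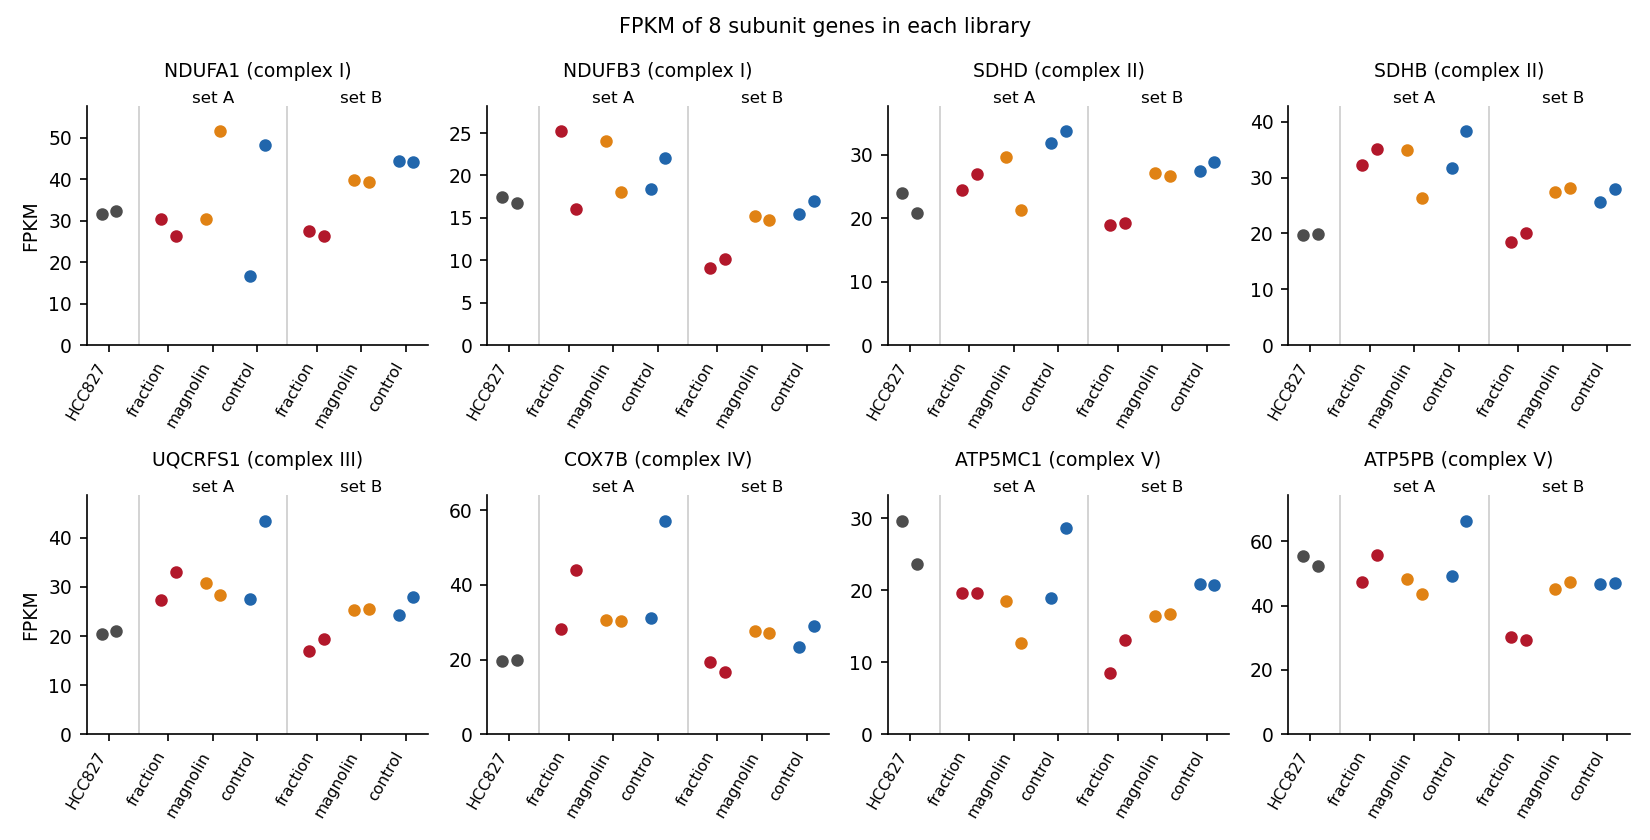
FPKM of 8 members in each library, each axis starting at 0; every point is 1 library, with HCC827 in grey, fraction in red, magnolin in orange and control in blue. In set B the 2 fraction libraries lie below the magnolin and control libraries in all 8 panels, while in set A fraction and control overlap in 7 panels and fraction lies below control for SDHD.

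The fraction was also compared with magnolin, a named compound of the same plant material, in the same set. Their doses are not stated, so it is not known whether these match. Of 81 members, 22 were lower with the fraction and 1 was higher, beside 14.9% of all tested genes called (5.55% as higher and 9.36% as lower). The median was -0.28, beside -0.02 for all genes, which the scaling largely sets. NDUFS5 differed by -0.58 ± 0.06, ATP5PB by -0.61 ± 0.07 and SDHB by -0.50 ± 0.08 (SE, adjusted p = 0.00542, 0.00607 and 0.0161). In complex V 6 of 19 genes were lower, in complex I 10 of 36 and in each of complexes II, III and IV 2. NDUFA13, a complex I subunit also known as GRIM-19, was the 1 higher, with 2.97 and 4.09 FPKM in fraction libraries and 1.91 and 0.892 FPKM with magnolin (log2 change 0.94 ± 0.24 SE, adjusted p = 0.0490). That call was lost with the replicate block, which gave 16 members, all lower, beside 8.93% of all genes. The comparison rests on its 2 magnolin libraries: without replicate 3 or replicate 4 of magnolin no member was called in limma, beside 2.04% and 1.57% of all genes.

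Magnolin itself was set against control in set B. No member passed the threshold (limma), beside 0.627% of all tested genes, with 5 members at an unadjusted p under 0.05, beside 14.2% of all genes. On the rebuilt reads limma voom called 1 member (1.23%), NDUFA11, beside 3.92% of all genes. The median change was -0.02 and 46 of 81 members were negative. NDUFA11, a membrane-arm subunit of complex I, was at 1.47 and 1.78 FPKM with magnolin and 2.92 and 2.66 FPKM in controls, and ATP5ME, a membrane subunit of the ATP synthase, at 2.76 and 3.73 FPKM with magnolin and 5.15 and 6.58 FPKM in controls. Both libraries were below both controls in these 2 low genes, and neither passed in limma (adjusted p = 0.177 and 0.186). Of the 4 members with the largest falls under the fraction, ATP5MC1 changed by -0.32 ± 0.18 with magnolin, ATP5PO by -0.30 ± 0.12, NDUFA1 by -0.16 ± 0.07 and NDUFB3 by -0.11 ± 0.09 (SE). In all 4 both magnolin libraries were below both controls, and none passed. These 4 were picked by their fall against the same controls, so their place below control with magnolin is not separate evidence. The fraction and magnolin comparisons share their 2 controls.

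Set A gave no call. For fraction against control, magnolin against control and fraction against magnolin, 0 of 78 members passed in limma, with or without the replicate block and with limma voom, and 0 had an unadjusted p under 0.05 without the block, beside 0.817%, 1.95% and 0.71% of all genes. The background was 0.0% of 13103 genes in each, or 0.183%, 0.992% and 0.183% with the block. The 3 members not tested there, COX6B2, COX7A1 and NDUFA7, did not reach the filter in set A. The controls themselves differed: replicate 2 was above replicate 1 in 66 of 78 members, by a median of 0.40. The median of all tested genes was 0.01 for the same pair, which the scaling largely sets. NDUFA1 had 30.3 and 26.2 FPKM in fraction libraries, 30.4 and 51.5 FPKM with magnolin and 16.6 and 48.3 FPKM in controls, so that the controls lay on either side of both fraction libraries. The median of members for fraction against control was -0.01, but -0.24 without control replicate 1 and 0.14 without control replicate 2.

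Taken by replicate number, the members moved differently in replicate 1 than in the other 3. The median difference of fraction minus control was 0.18 in replicate 1, with 62 of 81 members above control, and -0.20, -0.34 and -0.17 in replicates 2, 3 and 4, with 67, 71 and 58 of 81 members below control. All genes together had medians of 0.0 in replicates 1, 2 and 4, but the common scaling within each table largely sets these, so they are no independent background. Over genes of at least 5 FPKM the median ratios in set B were 0.958 and 0.956 in fraction libraries and 1.002 and 1.019 in controls. NDUFB3 was 0.43 above control in replicate 1 and 0.44, 0.70 and 0.69 below it in replicates 2 to 4. SDHD was below control in all 4, by 0.37, 0.31, 0.51 and 0.56. For magnolin minus control the medians were 0.20, -0.34, 0.01 and -0.04 in replicates 1 to 4, so that replicate 2 was the lowest there. Fraction and magnolin share each replicate's control, and the high EPCAM and CDH1 of replicate 1 moved with this split; the part of that difference in the result was not tested.

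**Figure D4:**
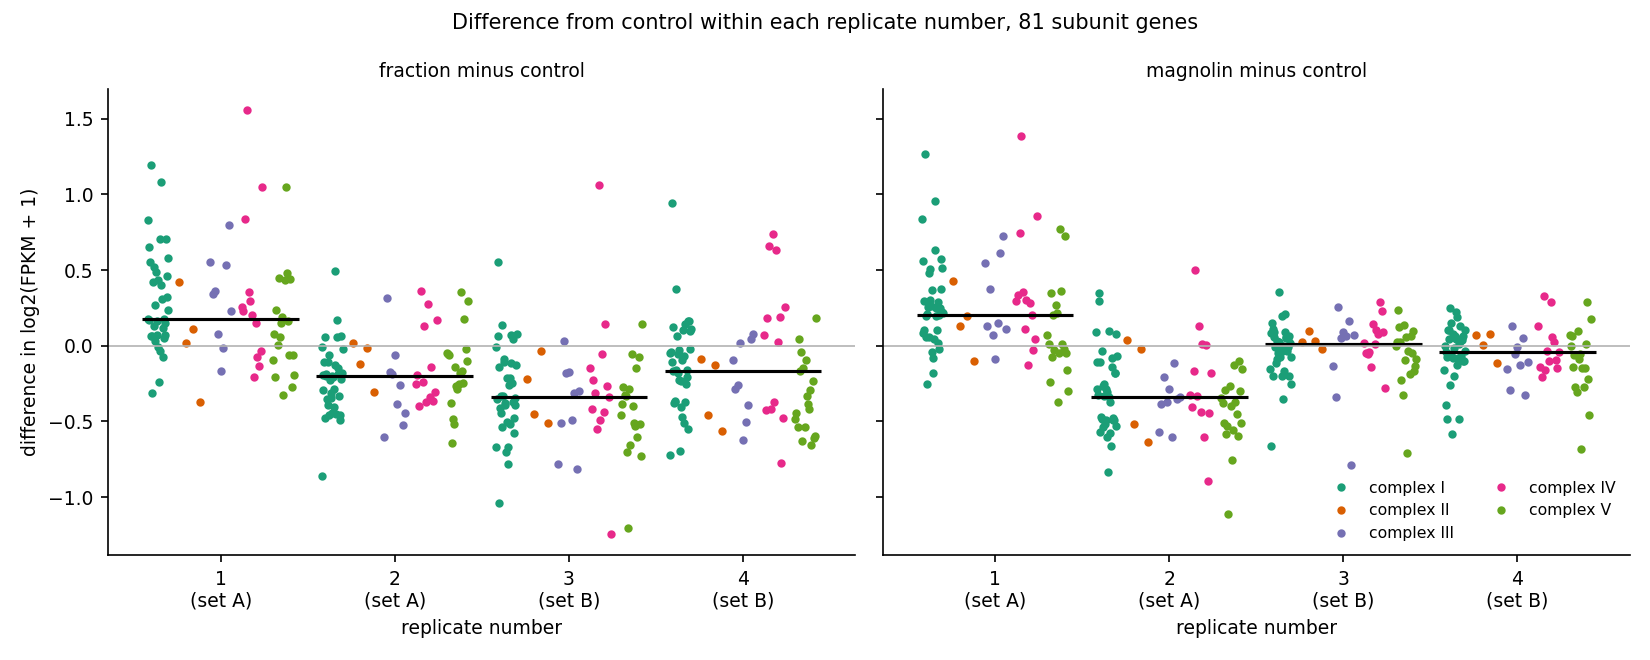
Difference from the control library of the same replicate number, in log2(FPKM + 1), for each of 81 members, coloured by complex; black bars are medians over the members. Fraction minus control has a median of 0.18 in replicate 1 and of -0.20, -0.34 and -0.17 in replicates 2, 3 and 4, and magnolin minus control has medians of 0.20, -0.34, 0.01 and -0.04; both panels use the same controls.

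Over both sets, with a term for the set, no member passed in limma for the fraction (background 0.00798%, with 8 members at an unadjusted p under 0.05 beside 10.5% of all genes) or for magnolin (background 0.0%, with 1 member beside 4.51%), and limma voom called none. The lowest p was that of SDHD with the fraction, at -0.44 ± 0.13 (SE, adjusted p = 0.367), and that of ATP5ME with magnolin, at -0.50 ± 0.16 (SE, adjusted p = 1). These fits had no replicate term, so their SE takes in differences between replicate numbers. With the replicate number as a block in place of the set term, 0 of 78 members passed for either treatment. The share of all genes was then 0.542% for the fraction and 0.0% for magnolin. The difference between sets, given below, was not fitted with that block. With the set term but without the 3 replicate 1 libraries the median for the fraction was -0.26, 71 of 77 members were negative and 2 (2.6%) were called, beside 2.34% of all genes: NDUFA1 at -0.75 ± 0.11 and NDUFB3 at -0.61 ± 0.11 (SE, adjusted p = 0.0131 and 0.0305). That fit was chosen after the data were seen. The difference of the fraction's change, set B minus set A, had a median of -0.29 over 78 members, but no member passed its test (limma and limma voom; background 0.00798%, with 5 members at an unadjusted p under 0.05 beside 4.24% of all genes). For magnolin that difference had a median of 0.05, and no member passed (limma and limma voom; background 0.0%), with 0 at an unadjusted p under 0.05 beside 3.87% of all genes. Without the replicate 1 libraries 1 of 77 members (1.3%) was called, ATP5MD at 0.76 (adjusted p = 0.0418), beside 3.58% of all genes. Both libraries were below both controls in each set for ATP5MD, NDUFA5 and SDHD with the fraction (3 of 78, background 4.59%), and for ATP5MC1, ATP5ME, ATP5PO, NDUFB2 and SDHD with magnolin (5 of 78, background 2.84%).

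The mitochondrially encoded subunits, which assemble with these proteins, went both ways under the fraction in set B. Of 13, 4 rose and 2 fell: MT-CO1, MT-ND1, MT-ND4 and MT-ND6 by 0.57, 0.33, 0.34 and 0.67, and MT-CYB and MT-ATP6 by -0.63 and -0.33. MT-CO1 had 14800 and 12700 FPKM in fraction libraries, 10800 and 11000 FPKM with magnolin and 9030 and 9390 FPKM in controls, while MT-CYB had 1800 and 1570 FPKM in fraction libraries, 2570 and 2520 FPKM with magnolin and 2620 and 2590 FPKM in controls. The share of reads from the mitochondrial genome was 8.17% and 7.04% in fraction libraries, 6.40% and 6.38% with magnolin and 5.84% and 5.83% in controls of set B. In set A that share was 7.60% and 8.42% in fraction libraries and 9.42% and 8.06% in controls, so it was not higher with the fraction there. MT-CO1, a catalytic subunit of complex IV, was higher in set B libraries in which its nuclear partner COX7B was lower, a call lost with the replicate block. Of the 13 nuclear members of complex IV, 3 were called lower and 1 higher there.

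Genes that build or surround the chain were taken from lists chosen with earlier results of these data known. Their counts stand beside 19.9% of all genes called, and those of ubiquinone synthesis, import and the citric acid cycle are near that share. Of 17 assembly factors of complex I and 4 of complex V, none passed for the fraction in set B (limma; medians -0.10 and -0.10). Of 22 assembly factors of complex IV, SURF1 and COX19 rose by 0.65 and 0.60 and COA7 and FASTKD5 fell. TTC19, a complex III assembly factor, was the 1 of 10 called for complexes II and III and rose by 0.45. Of the 3 subunit or carrier genes outside the naming rule, NDUFAB1, CYC1 and CYCS, none passed (median -0.20). In ubiquinone synthesis COQ2, COQ3 and COQ7 fell, 3 of 13, by 0.51, 0.91 and 0.48. In mitochondrial import TIMM10, TIMM17A, TIMM8B and TOMM70 fell, 4 of 18. In the citric acid cycle and its entry, 3 of 17 fell, citrate synthase CS, fumarase FH and PDHX, and OGDH rose. Among 10 stress and chaperone genes LONP1, the matrix protease, rose by 1.04, with 76.1 and 91.2 FPKM in fraction libraries, 53.9 and 48.7 FPKM with magnolin and 41.1 and 39.1 FPKM in controls; HSPA9 rose by 0.32 and HSPE1 fell by 0.87. Among 8 genes of the oxygen-dependent switch BNIP3, a mitophagy receptor, rose by 1.47, and it also rose with magnolin, by 0.89 (adjusted p = 0.0239). BNIP3L rose by 0.66, MXI1 also rose, and PDK1 rose by 0.43, while HIF1A and ISCU fell. Of 13 regulators TFAM, which packages and transcribes mitochondrial DNA, fell by 0.33, and ESRRA and TFB1M rose by 0.45 and 0.40; these 3 calls were lost with the replicate block.

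Markers of the cells were read in the same libraries. KRT8 and KRT18, keratins of epithelial cells, fell with the fraction in set B by 0.87 and 0.75. The summed level of the 5 lung adenocarcinoma line markers was 352 to 377 FPKM with the fraction, 392 to 399 FPKM with magnolin and 551 to 561 FPKM in controls. The other line markers, EPCAM, CDH1 and KRT19, were not called against control. Against magnolin, EPCAM and CDH1 were higher with the fraction by 0.44 and 0.45 (limma, adjusted p = 0.0409 and 0.0476), while KRT8 was lower by 0.34 (adjusted p = 0.0198). Markers of other cells were low: the 10 fibroblast, leukocyte and endothelial genes summed to 10.6 to 11.1 FPKM with the fraction, 16.2 to 16.9 FPKM with magnolin and 23.4 to 30.4 FPKM in controls. COL1A1, COL1A2 and CDH5 fell, 3 of 4 tested, and CD3E and COL3A1 were listed at 0 in fraction and control libraries of set B. Both keratins also fell with magnolin, by 0.51 for KRT18 and 0.53 for KRT8, in libraries without a called subunit. The part of either marker list in the subunit result was not tested.

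HCC827 levels were set beside the 4 NCI-H1975 controls as a description, since line and table cannot be told apart. In 39 of 81 members (48.1%) both HCC827 libraries were below all 4 controls, beside 29.4% of genes, and in 11 (13.6%) both were above, beside 22.9%. Without control replicate 1 the counts were 48 below and 11 above, beside 37.1% and 27.7% of genes. All 4 complex II genes were below: SDHA was at 23.0 and 22.3 FPKM in HCC827 and at 24.03 to 50.5 FPKM in controls, and SDHC at 6.24 and 6.86 FPKM in HCC827 and at 9.72 to 14.04 FPKM in controls. In complex I 17 of 36 were below. NDUFS4, an accessory subunit needed for a stable complex, stood lowest against the controls, at 9.91 and 10.02 FPKM in HCC827 and 29.03 to 46.98 FPKM in controls. The NADH-binding NDUFV1 was at 34.9 and 34.0 FPKM in HCC827 and 51.2 to 85.6 FPKM in controls. In the other direction, UQCRH had 103 and 94.5 FPKM in HCC827 and 38.3 to 64.5 FPKM in controls, and its near-copy UQCRHL 4.23 and 4.87 FPKM in HCC827 and 0.889 to 2.69 FPKM in controls, so that reads may be shared between the pair. COX6A1 had 36.3 and 30.3 FPKM in HCC827 and 11.99 to 17.1 FPKM in controls. Complex IV was again mixed, with 5 of 13 below and 5 above all controls.

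**Figure D5:**
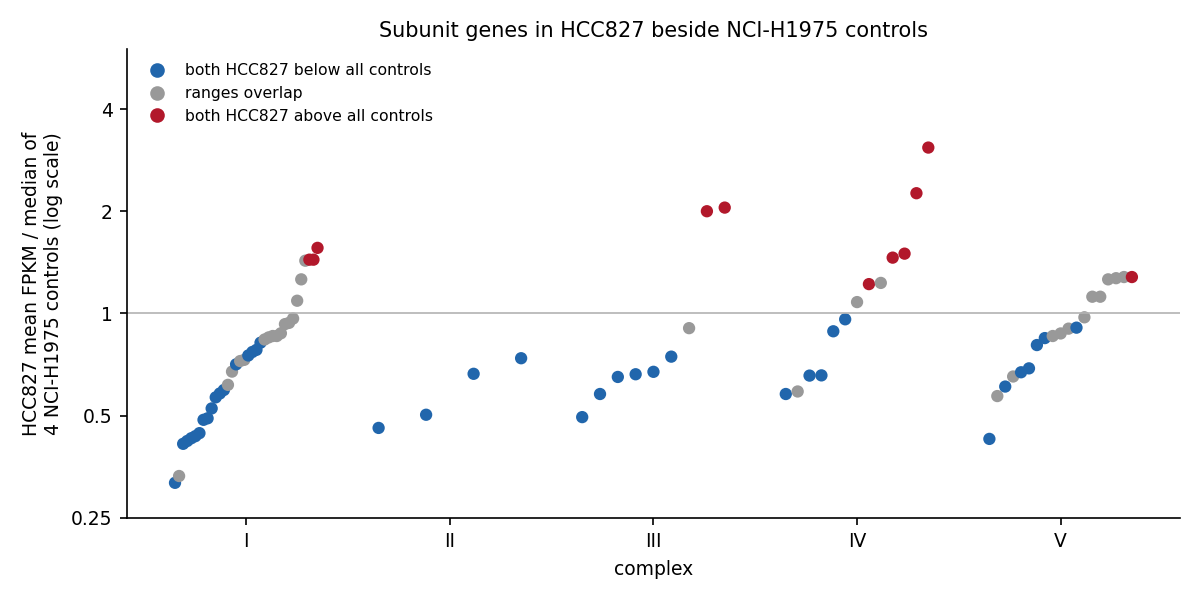
Ratio of the HCC827 mean to the median of 4 NCI-H1975 controls for each member, by complex, on a log axis; blue points have both HCC827 libraries below all controls, red points both above, and grey points overlap. All 4 complex II genes are blue, and of the 11 red points 5 are in complex IV; no test was made.

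Some members share sequence or ground with other genes. Of 81, 52 overlap another annotated gene, 41 of them one on the other strand, and 44 have pseudogenes that carry their name, up to 17 for COX6C. NDUFA7 overlaps the ribosomal gene RPS28, at up to 128 FPKM in NCI-H1975, so its values of 0.204 to 1.13 FPKM are uncertain. Members are 507 to 14160 bases long, with a median of 2475, and over the 81 members length and the fraction's change in set B had a Spearman correlation of 0.22, as a description over genes that share the same libraries. The 24 members under 1500 bases had a median change of -0.36 and the 57 longer ones of -0.22.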

How the data were processed

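Gene expression was measured by RNA sequencing of total RNA in 12 NCI-H1975 and 2 HCC827 libraries. The deposited values are FPKM per gene, made by the authors on hg38 per the submitters' processing notes; no source used here names the aligner, the counter or the strand setting. The values held whole reads for 100.0% of those checked (within 0.05 reads), and reads were rebuilt from FPKM and gene length. They were already scaled to a common median ratio within each table. Another 2 columns matched no label and were not used. Gene coordinates were those of the files.

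Within each set, log2(FPKM + 1) was tested with limma 3.58.1 (R 4.3.3), all 3 groups in 1 fit, over genes at 1 FPKM in at least 2 libraries, with Benjamini-Hochberg adjustment over all of them and a threshold of 0.05. Fold changes on this scale understate changes of low genes. Fits over both sets had a set term. Scripts were tested on simulated data. Same-numbered libraries deviated together over all 4 replicates (12 correlations of 0.2633 to 0.8707), in set A by 0.7353 to 0.7799 and in set B by -0.05529 to 0.06053. The counts given first have no replicate term, and the replicate block is an alternative; in set B, which carries the calls, same-numbered libraries did not deviate together. Promoters came from RefSeq.

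The members, gene lists and named genes were chosen with earlier results of these data known. Named genes were the 2 highest of each complex, up to 4 called per complex and direction, complex II, tissue forms, ATP5IF1 and members near the FPKM threshold; other genes named with values were chosen after these were seen. The values of 1 called member are not reported here. Alternatives were the pseudocount, the filter, limma voom, 2 groups alone, the replicate block and leaving out each library. Scaling over genes of at least 5 FPKM, scaling to rebuilt reads and leaving out all replicate 1 libraries were added after the data were seen.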

Additional observations from a re-analysis of the deposited data

Results flagged for a closer look

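Dixon's ratio, the gap of an extreme library to its neighbour over the range of the group, passed the 95% critical value in 8 of 117 groups of 4 libraries; chance gives about 1 in 20 groups, and each group spans 2 separately normalised tables. Magnolin replicate 1 was the highest of its group for ATP5F1B (ratio 0.92), with 583, 349, 355 and 368 FPKM in replicates 1 to 4, for COX5A (0.855), with 90.9, 53.8, 47.5 and 52.1 FPKM, and for COX6A1 (0.881), with 39.1, 17.4, 16.6 and 19.3 FPKM. Magnolin replicate 2 was the highest for COX7C (0.849), with 50.3, 62.7, 51.8 and 49.9 FPKM. Control replicate 2 was the highest for ATP5PB (0.867), with 49.3, 66.4, 46.7 and 46.9 FPKM, and for COX6B1 (0.88), with 51.7, 80.1, 51.4 and 54.8 FPKM. Control replicate 1 was the lowest for NDUFA1 (0.862), with 16.6, 48.3, 44.3 and 44.0 FPKM, and for SDHA (0.928), with 24.03, 49.8, 48.6 and 50.5 FPKM. All 8 were libraries of set A, and their cause was not tested.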

How the results depend on the processing

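Percentages in parentheses are the share of all genes called in the same fit. For fraction against control in set B the 27 member calls (19.9%) became 10 with no filter (4.75%), 16 with the 2 groups alone (14.4%) and 3 to 41 on leaving out 1 library (5.07% for the fit with 3); voom gave 35 (28.0%). For fraction against magnolin the 23 member calls (14.9%) became 11 with no filter (2.23%), 13 with the 2 groups alone (7.41%), 15 with scaling over genes of at least 5 FPKM (2061 of 14673 genes) and 0 to 31 on leaving out 1 library. That scaling turned the split over all genes for fraction against control from 1222 higher and 1696 lower to 1544 and 1302, with a member median of -0.18, and for fraction against magnolin from 814 and 1374 to 1232 and 829. Magnolin against control in set B gave 1 call with voom. Without the replicate 1 libraries the fraction over both sets gave 2 calls, and the difference of the magnolin changes between sets 1, ATP5MD. COX8A, fraction against magnolin in set B, changed sign to 0.34 without fraction replicate 3 and was -1.02 without fraction replicate 4. With the replicate block 24 members were called in place of 27 (21 shared) and 16 in place of 23 (all 16 shared); the other counts of called members stayed at 0. With 2 libraries per group and set, 1 library can decide a call; the causes were not tested.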
